A study of Homo sapiens with 18 samples.

Results

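Expression of 7 kallikrein genes on the long arm of chromosome 19 (19q13), KLK2, KLK3, KLK4, KLK15, KLK10, KLK11 and KLK12, was examined in 18 RNA Seq libraries of prostate cancer cells. The genes were chosen by name, out of the 15 kallikrein genes of the family cluster and of the 60675 genes that each library lists. Earlier results of these data were known when the choice was made. LNCaP cells depend on androgen for growth, and C4-2 cells, derived from LNCaP, do not and serve as a model of castration-resistant disease. Each line gave 3 groups of 3 libraries. A scrambled siRNA (siScr) was combined with vehicle in the first group and with 1 nM of the synthetic androgen R1881 for 72 h in the second, and in the third, siRNA pools against KDM1A and KDM7A together (dual knockdown) were combined with the same R1881 treatment. All cells were kept in hormone-depleted medium and were transfected with an siRNA, so the vehicle cells are not untreated cells. No library analysed here had KDM1A or KDM7A knocked down alone, or the dual knockdown without R1881. The 3 C4-2 vehicle libraries are C4-2 by their titles and LNCaP by their cell line field, and were grouped by title.

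Kallikreins are secreted serine proteases. KLK3, better known as prostate-specific antigen (PSA), liquefies the seminal clot by cutting semenogelins, and KLK2, its closest relative, can cut the pro-peptide from KLK3 and so activate it. In prostate cells, androgen signalling acts through androgen response elements at the promoter and at an upstream enhancer of KLK3, which made KLK3 a standard readout of androgen action. KLK4, a protease also needed for tooth enamel, and KLK15 are further kallikreins of the prostate, and KLK10, KLK11 and KLK12 are found in several epithelia.

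On GRCh38, KLK15 (ENSG00000174562) lies on the minus strand of chromosome 19 from 50825289 to 50837213. KLK3 (ENSG00000142515) follows on the plus strand from 50854915 to 50860764, and KLK2 (ENSG00000167751), also on the plus strand, from 50861568 to 50880567. KLK4 (ENSG00000167749) lies on the minus strand from 50906352 to 50910738. KLK10 (ENSG00000129451, 51012739 to 51020175), KLK11 (ENSG00000167757, 51022216 to 51028039) and KLK12 (ENSG00000186474, 51029092 to 51035230) stand together at the far end, on the minus strand. As annotated, 803 bases separate the end of KLK3 from the start of the KLK2 span. The RefSeq start of KLK2 used below lies further along, at 50873439.

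The sequence before the start of KLK3 is shown because it holds the best match among the 7 genes to an androgen response element. The 250 bases upstream of the RefSeq start, chr19:50854665-50854914 on the plus strand of GRCh38.p14, read as follows, with the 15 bases of the match in capitals.
KLK3 upstream: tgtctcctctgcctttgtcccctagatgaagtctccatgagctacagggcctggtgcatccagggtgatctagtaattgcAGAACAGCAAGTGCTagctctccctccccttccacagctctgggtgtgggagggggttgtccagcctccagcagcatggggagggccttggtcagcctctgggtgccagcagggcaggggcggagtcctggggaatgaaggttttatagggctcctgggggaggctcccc
The motif searched was the half-site AGAACA, 3 free bases and then TGTTCT, which reads the same on both strands and has 12 fixed bases over a length of 15. RefSeq windows of 300 bases (250 before and 50 after a start) were held for all 7 genes, some with more than 1 start. KLK3 matched 10 of the 12 fixed bases at chr19:50854745-50854759, which begins 170 bases before its start and lies in no annotated exon. KLK2 matched 9 of 12 at chr19:50873263-50873277, beginning 176 bases before its RefSeq start and inside exon 1 of 1 KLK2 transcript of GENCODE 29. The 2 sites are shown with 7 bases on either side, with the bases that equal the motif in capitals, because they differ at a single position of the site.
KLK3 site: taattgcAGAACAgcaaGTgCTagctctc
KLK2 site: tatgtgtgGAACAgcaaGTgCTggctctc
Counted from 1 at the 5′ end of the site, the KLK3 site differs from the motif as T10A and T13G. The KLK2 site carries the same pair of differences and A1G besides. Of 35116 RefSeq windows of all genes, 1.41% held a match with at most 2 mismatches and 10.8% one with at most 3. The best matches of KLK10 and KLK12 had 4 mismatches, a level reached in 47.0% of windows, and those of KLK15, KLK4 and KLK11 had 5, reached in 89.2%. A match is a run of letters and does not show that a protein binds there. The upstream 250 bases of KLK3 and KLK2 were identical at 210 of 262 aligned positions (80.2%), against 56.1% for the next most alike pair of different genes, KLK2 and KLK10.

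Total counts of read pairs assigned to genes ranged from 3182604, in C4-2 vehicle replicate 3, to 20154243, with a median of 18117641. All other libraries held at least 10485096. The counts are whole read pairs per Ensembl gene and were scaled by edgeR's TMM method. Levels are given as CPM, read pairs of a gene relative to the library's scaled total, or, where genes are compared with each other, as RPKM, which is CPM per kilobase of the gene's summed exons. KDM1A fell under dual knockdown from 108 to 51.6 CPM in LNCaP and from 142 to 16.4 CPM in C4-2, and KDM7A from 59.7 to 30.9 CPM and from 121 to 21.2 CPM. The log2 fold changes (log2FC) were −1.05 and −3.12 for KDM1A and −0.93 and −2.51 for KDM7A, with adjusted p between 9.8e-10 and 4.7e-05 (edgeR), so both targets were lowered more in C4-2. The summed level of 6 luminal prostate markers was 2131 to 4782 CPM in every library, with none of the 6 at 0 in any group. Summed basal markers (KRT5, KRT14 and TP63) reached at most 0.286 CPM with vehicle and 0.632 to 1.60 CPM in libraries with R1881, mostly KRT14, and 3 neuroendocrine markers reached at most 3.74 CPM. Leukocyte markers summed to 2.04 to 3.52 CPM in C4-2 vehicle libraries, mostly PTPRC (1.75 to 3.21 CPM), against at most 0.734 CPM elsewhere. Stromal markers, mostly COL1A1, summed to 6.96 to 36.3 CPM and were higher with vehicle than with R1881 in the siScr cells of both lines, and under dual knockdown they stood at 10.2 to 12.6 CPM in LNCaP and 26.6 to 36.3 CPM in C4-2. The part of these markers in the results below was not tested. In bulk RNA, fewer cells that express a gene and less RNA per cell cannot be told apart.

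The 7 genes fell into 2 sets by level. KLK2, KLK3, KLK4 and KLK15 had counts in all 18 libraries, whereas KLK10, KLK11 and KLK12 had between 0 and 5 counts in each library. KLK10 had 5 counts in all, spread over 4 libraries, KLK11 had 13 over 6 and KLK12 had 8 over 5. KLK11 was highest in C4-2 with R1881, where 6 counts over 3 libraries gave 0.111 CPM of the summed raw totals (95% exact Poisson interval 0.0408 to 0.242). Of those 6 counts, 5 came from replicate 1. KLK10, KLK11 and KLK12 had 0 counts in C4-2 vehicle libraries, which allows a level of up to 0.0790 CPM (3 counts of the group's summed raw total). These intervals and limits cover counting error only. None of the 3 genes passed edgeR's filter on low counts in any fit, so no change could be measured for them at this depth. Of KLK10 and KLK12, 6.23% and 9.04% of the exon bases are shared with an antisense gene, and the counting used no strand.

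**Figure D1:**
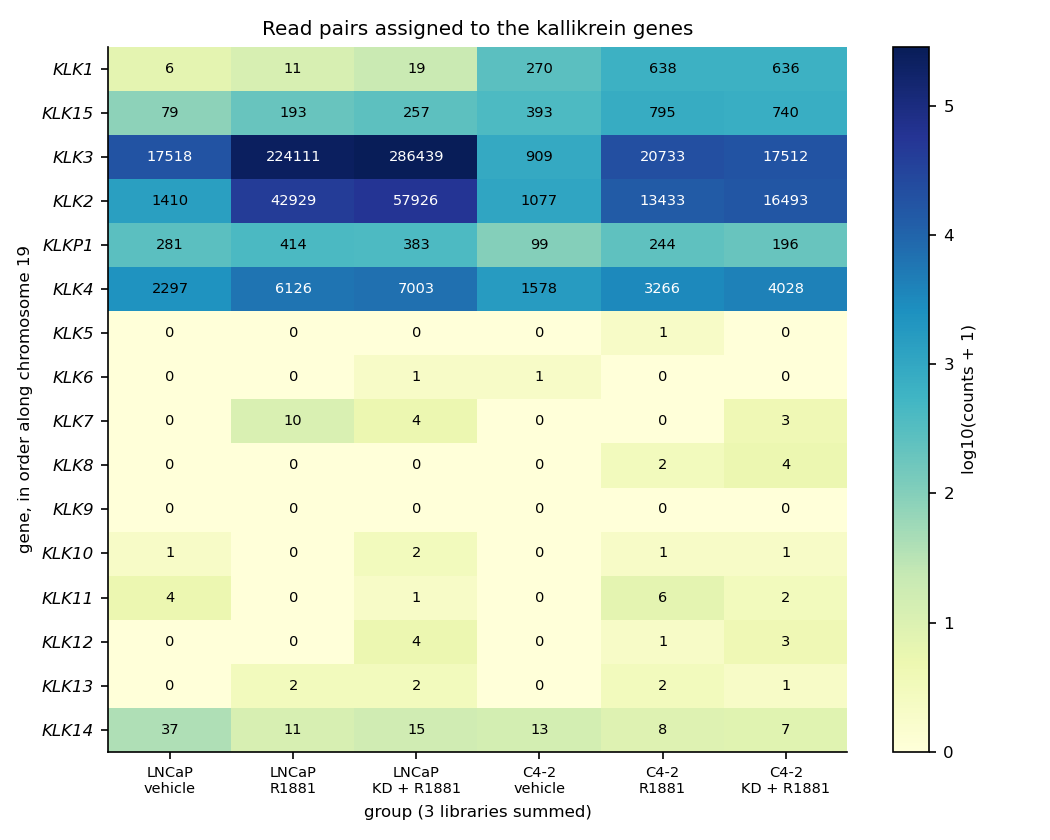
Read pairs assigned to each kallikrein gene and to the pseudogene KLKP1, in order along chromosome 19 (rows), summed over the 3 libraries of each group (columns, KD for dual knockdown), with colour for log10(counts + 1). The rows from KLK1 to KLK4 carry nearly all counts, and each gene from KLK5 to KLK14 has at most 37 counts in a group.

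The other 8 kallikreins of the cluster split in the same way. KLK5, KLK6, KLK7, KLK8, KLK9 and KLK13 had 1, 2, 17, 6, 0 and 7 counts over all 18 libraries. KLK14 had 91 counts, of which 37 were in LNCaP vehicle libraries (mean 0.664 CPM), and also did not pass the filter. KLK1, tissue kallikrein, which frees kinins from kininogen, was the only other kallikrein that was tested, and it is described with the differences between the lines. The counts of the cluster therefore sat at its KLK1 to KLK4 end, as the map of summed read pairs shows. KLK3 and KLK2 transcripts share exact runs of at most 60 bases, shorter than a read of 150 bases, and none of the exon bases of KLK2, KLK3, KLK4 or KLK15 is shared with another gene.

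KLK3 was the most abundant kallikrein in every LNCaP library. Its RPKM in LNCaP vehicle libraries was 77.6, 71.8 and 73.7. With R1881 it was 954, 957 and 1023, and under dual knockdown with R1881 it was 1238, 1188 and 1066. The 3 groups of LNCaP did not overlap. Such separation was common among genes with at least 30 counts over the 6 libraries compared. For R1881 against vehicle it was found in 50% of these genes in LNCaP and 44.8% in C4-2. For dual knockdown against R1881 alone it was found in 33.3% and 38.7%. KLK3 took 0.0356% to 0.0393% of all LNCaP counts with vehicle and 0.423% to 0.456% with R1881, which moved it from between the 311th and the 375th to the 7th or the 8th place among all genes by counts. In C4-2, the RPKM of KLK3 was 4.68, 5.26 and 4.02 with vehicle, 85.3, 81.5 and 89.9 with R1881, and 84.3, 64.1 and 64.3 under dual knockdown. The C4-2 dual knockdown libraries overlapped the R1881 libraries, through replicate 1. C4-2 with R1881 (85.5 ± 4.19 RPKM, SD, n = 3) stood just above LNCaP without it (74.4 ± 2.99 RPKM, SD, n = 3). The order of KLK3 from highest to lowest was LNCaP dual knockdown, LNCaP R1881, C4-2 R1881, LNCaP vehicle, C4-2 dual knockdown and C4-2 vehicle, and only LNCaP vehicle and C4-2 dual knockdown overlapped as neighbours.

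KLK2 stood at a like level in both lines without hormone. With vehicle, its RPKM was 4.56, 4.24 and 4.23 in LNCaP and 4.22, 4.31 and 3.42 in C4-2. With R1881 it was 132, 128 and 147 in LNCaP and 40.0, 39.1 and 41.4 in C4-2. Under dual knockdown it was 181, 173 and 158 in LNCaP and 54.9, 44.3 and 46.5 in C4-2. The vehicle groups of the lines overlapped, and every other pair of neighbours in the order of KLK2 levels was apart.

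KLK4 spanned a narrower range. Its RPKM in LNCaP was 23.1, 22.5 and 24.0 with vehicle, 66.3, 60.5 and 64.8 with R1881, and 65.7, 68.3 and 69.6 under dual knockdown. In C4-2 it was 19.8, 21.1 and 18.7 with vehicle, 30.5, 34.5 and 31.8 with R1881, and 42.3, 38.4 and 36.9 under dual knockdown. The LNCaP libraries with R1881 and with dual knockdown overlapped, and the C4-2 ones did not.

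KLK15 had the lowest mean of the 4 in every group but C4-2 vehicle, where KLK2 was lower (3.98 against 4.27 RPKM) with overlapping libraries. KLK2 had more counts there (1077 against 393), over longer summed exons (6394 against 2289 bases). KLK15 was the only one of the 4 that was higher in C4-2 than in LNCaP. Its RPKM in LNCaP was 0.573, 0.730 and 0.672 with vehicle, 2.06, 1.28 and 1.68 with R1881, and 1.80, 2.36 and 2.12 under dual knockdown. In C4-2 it was 3.64, 4.98 and 4.20 with vehicle, 7.18, 6.43 and 6.26 with R1881, and 6.68, 6.21 and 5.31 under dual knockdown. All 9 C4-2 libraries lay above all 9 LNCaP libraries. Between the lines, 61.2% of genes did not overlap with vehicle and 64.8% with R1881, in either direction. The counts behind KLK15 were 15 to 101 per library in LNCaP and 33 to 299 in C4-2, so its values carry more counting error than those of the other 3 genes.

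**Figure D2:**
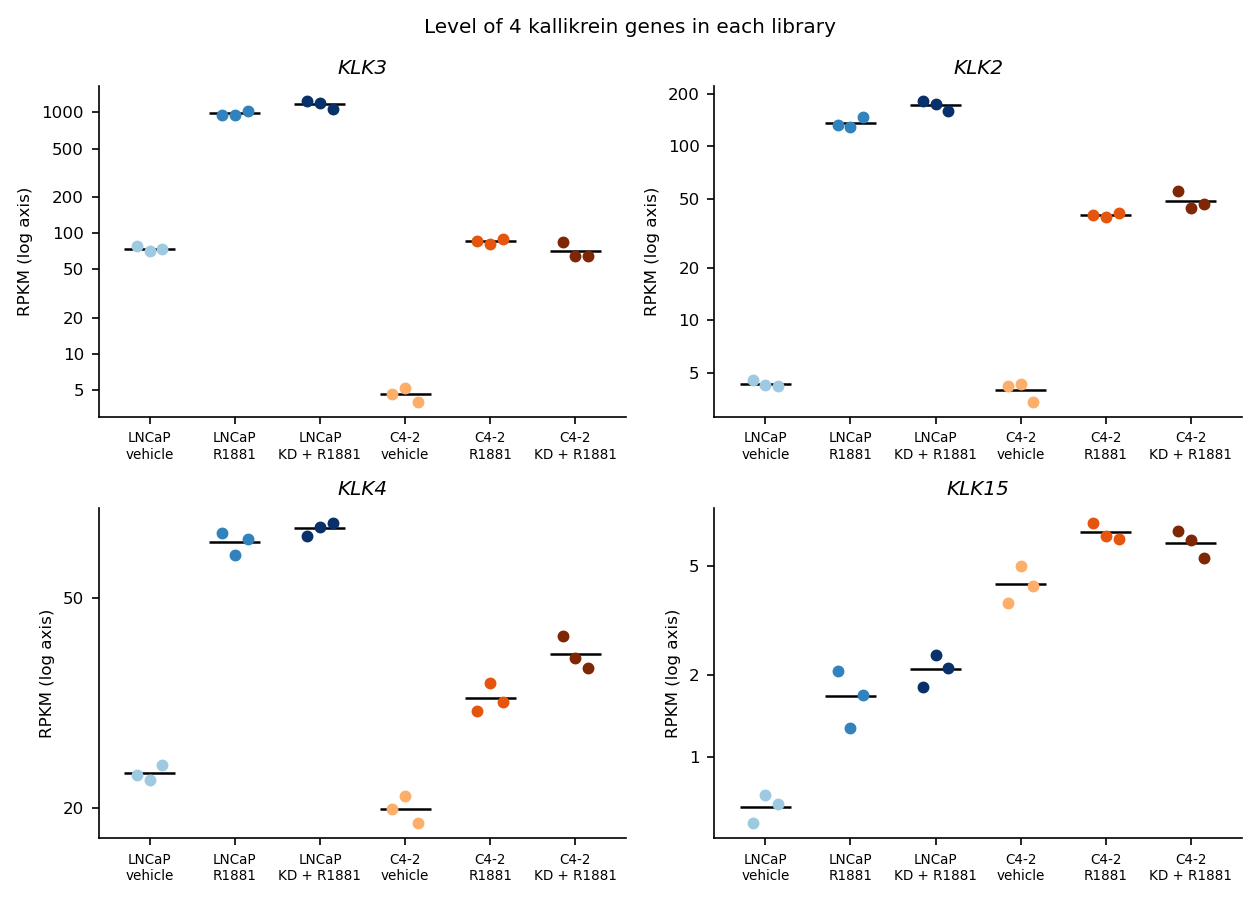
RPKM of KLK3, KLK2, KLK4 and KLK15 (vertical log axes, a different range in each panel) in each library (points) of the 6 groups, with the group mean as a bar and KD for dual knockdown. All 4 genes are higher with R1881 than with vehicle in both lines, KLK3, KLK2 and KLK4 have their highest means in LNCaP, and KLK15 has its highest in C4-2 with R1881 (6.62 RPKM).

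The first comparison asked how far androgen raised the kallikreins in each line. In LNCaP, R1881 raised all 4 genes that could be tested. KLK2 rose from 27.8 to 867 CPM, a log2FC of 4.95 (SE 0.081, adjusted p = 1.9e-17, edgeR's quasi-likelihood test), and KLK3 from 345 to 4537 CPM, a log2FC of 3.70 (SE 0.068, adjusted p = 6.1e-17). KLK4 rose from 44.9 to 124 CPM (log2FC 1.44, SE 0.064, adjusted p = 6.2e-12) and KLK15 from 1.51 to 3.83 CPM (log2FC 1.32, SE 0.23, adjusted p = 0.00015). For each gene the R1881 libraries all lay above the vehicle libraries, for which the exact permutation test (2-sided) gave p = 0.1, and no smaller p can come from 3 against 3 libraries. The 2 groups also did not overlap, in either direction, for 50% of the genes with at least 30 counts over these 6 libraries. All 4 passed the test and had a log2FC of at least 1, whereas 23.5% of the 17162 genes tested rose and 5.68% rose by at least that much. The median log2FC of the 4 genes was 2.57, against −0.042 over all genes tested.

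In C4-2, R1881 also raised the 4 genes, with KLK3 in the first place rather than KLK2. KLK3 rose from 21.6 to 397 CPM (log2FC 4.16, SE 0.12, adjusted p = 4.4e-12) and KLK2 from 25.5 to 257 CPM (log2FC 3.29, SE 0.10, adjusted p = 6.0e-12). KLK4 rose from 38.4 to 62.4 CPM (log2FC 0.68, SE 0.086, adjusted p = 2.8e-05) and KLK15 from 9.78 to 15.2 CPM (log2FC 0.63, SE 0.14, adjusted p = 0.0032). Of the 16965 genes tested, 17.1% rose, and 4.29% rose with a log2FC of at least 1, as did KLK3 and KLK2 only among the 4. No single library decided any of these 4 calls, the shallow vehicle replicate 3 included. With total counts in place of TMM the median of all genes shifted by −0.14 in LNCaP and −0.13 in C4-2, and the share of calls that were higher went from 50.3% to 31.7% and from 52.1% to 31.8%, while the 4 kallikreins still rose in both lines.

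**Figure D3:**
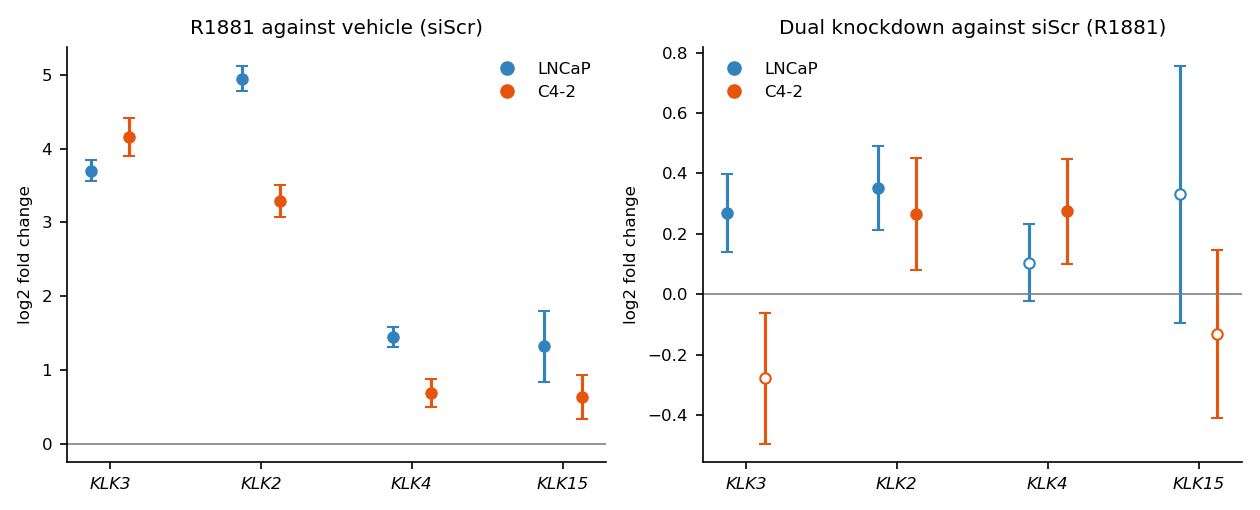
Log2 fold change (vertical axes, a different range in each panel) of 4 kallikrein genes with R1881 against vehicle in siScr cells (left) and with dual knockdown against siScr under R1881 (right), in LNCaP and C4-2. Points are edgeR estimates with 95% intervals, filled where the adjusted p was under 0.05, and the values on the left lie between 0.63 and 4.95 and those on the right between −0.28 and 0.35.

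A test of the interaction between line and R1881, fitted to all 18 libraries, gave the difference between the lines in each response. The response of KLK2 was smaller in C4-2 by 1.68 on the log2 scale (log2FC of the difference −1.68, SE 0.13, adjusted p = 4.6e-09). That of KLK4 was also smaller in C4-2 (−0.78, SE 0.10, adjusted p = 1.1e-05). The response of KLK3 went the other way and was larger in C4-2 (0.44, SE 0.14, adjusted p = 0.034). This difference for KLK3 stayed between 0.39 and 0.53 but did not pass without LNCaP vehicle replicate 1 or 3, LNCaP R1881 replicate 1 or 2, C4-2 vehicle replicate 1 or C4-2 R1881 replicate 3 (adjusted p 0.054 to 0.11), nor with counts thinned to the smallest library (adjusted p = 0.062). For KLK15 the difference was −0.70 (95% interval −1.24 to −0.16) with an adjusted p of 0.076, and it passed without LNCaP R1881 replicate 2 or without C4-2 vehicle replicate 1 (adjusted p = 0.027 and 0.046, with up to 0.22 without another library). Of the 18684 genes tested, 6.05% had a larger and 7.95% a smaller log2FC in C4-2.

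Without hormone, the kallikreins of the lines differed gene by gene. KLK3 was lower in C4-2 vehicle libraries than in LNCaP ones, 21.6 against 345 CPM (log2FC −3.95, SE 0.11, adjusted p = 1.5e-17). KLK2, its neighbour, was 25.5 against 27.8 CPM, a log2FC of −0.08 with a 95% interval from −0.28 to 0.12 (adjusted p = 0.51). KLK4 was slightly lower in C4-2 (log2FC −0.21, SE 0.075, adjusted p = 0.020), and this call was lost without LNCaP vehicle replicate 3, C4-2 vehicle replicate 1 or C4-2 vehicle replicate 3 (adjusted p 0.056 to 0.085) and without the filter (adjusted p = 0.10). KLK15 was higher in C4-2 (log2FC 2.67, SE 0.20, adjusted p = 1.5e-10). Of the genes tested, 29.4% were higher and 29.5% lower in C4-2, so a called difference between the lines was common.

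With R1881 in both lines, KLK3 remained lower in C4-2 (log2FC −3.52, SE 0.098, adjusted p = 1.7e-17) and KLK15 higher (log2FC 1.97, SE 0.17, adjusted p = 1.3e-09). KLK2 was then also lower in C4-2 (log2FC −1.75, SE 0.082, adjusted p = 8.5e-14), as was KLK4 (log2FC −0.99, SE 0.069, adjusted p = 6.4e-11). In this comparison 28.6% of genes were higher and 29.7% lower in C4-2. The comparisons with vehicle and with R1881 rest on different libraries.

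KLK1, which lies next to KLK15 at the end of the cluster (ENSG00000167748, chromosome 19, 50819148 to 50823787, minus strand), had far more counts in C4-2 than in LNCaP. It had 1 to 8 counts per library in LNCaP and 14 to 235 in C4-2. Its RPKM with vehicle was 0.110, 0.0390 and 0.0231 in LNCaP and 2.98, 2.87 and 1.72 in C4-2. Since it passed the filter through its C4-2 counts alone, no test between the lines is given for it. The 3 vehicle libraries that the cell line field calls LNCaP therefore had KLK1 and KLK15 levels above every LNCaP library. R1881 raised KLK1 in C4-2 from 5.995 to 12.2 CPM (log2FC 0.92, SE 0.16, adjusted p = 0.00042). KLK1 did not pass the filter in LNCaP. KLKP1, a kallikrein pseudogene between KLK2 and KLK4 (50882096 to 50896398, minus strand), rose with R1881 in LNCaP from 5.55 to 8.45 CPM (log2FC 0.59, adjusted p = 0.0028) and in C4-2 from 2.50 to 4.70 CPM (log2FC 0.92, adjusted p = 0.0078).

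The ratio of KLK3 to KLK2 within a library, in RPKM, needs no scaling between libraries and was computed after the values above had been seen. It was 17.1 ± 0.276 (SD, n = 3) in LNCaP with vehicle and went down to 7.23 ± 0.257 with R1881. In C4-2 it was 1.17 ± 0.0565 with vehicle and went up to 2.13 ± 0.0425 with R1881. R1881 thus moved the ratio in opposite directions in the lines, 2.37-fold down in LNCaP and 1.82-fold up in C4-2, and in each line the groups did not overlap. Under dual knockdown the ratio was 6.81 ± 0.0562 in LNCaP and 1.45 ± 0.0781 in C4-2, the latter 1.46-fold lower than with R1881 alone in C4-2. KLK4 and KLK15, which lie apart on the minus strand, kept a ratio of 35.6 ± 4.67 with vehicle and 39.4 ± 7.53 with R1881 in LNCaP, and of 4.71 ± 0.651 and 4.90 ± 0.583 in C4-2, and those pairs of groups overlapped. Under dual knockdown this ratio was 32.8 ± 3.79 in LNCaP, overlapping R1881 alone, and 6.48 ± 0.406 in C4-2, 1.33-fold above R1881 alone with no overlap. Between the lines with vehicle, the ratio of KLK4 to KLK15 was 7.57-fold lower in C4-2. The exact permutation test of these log ratios gave p = 0.1, the smallest it allows, for every pair of groups said here not to overlap, and 24 such tests were computed for 3 ratios. How often the ratios of other gene pairs separate in this way was not computed. The third ratio, KLK4 to KLK2, went down with R1881 from 5.35 to 0.472 in LNCaP and from 5.02 to 0.804 in C4-2.

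**Figure D4:**
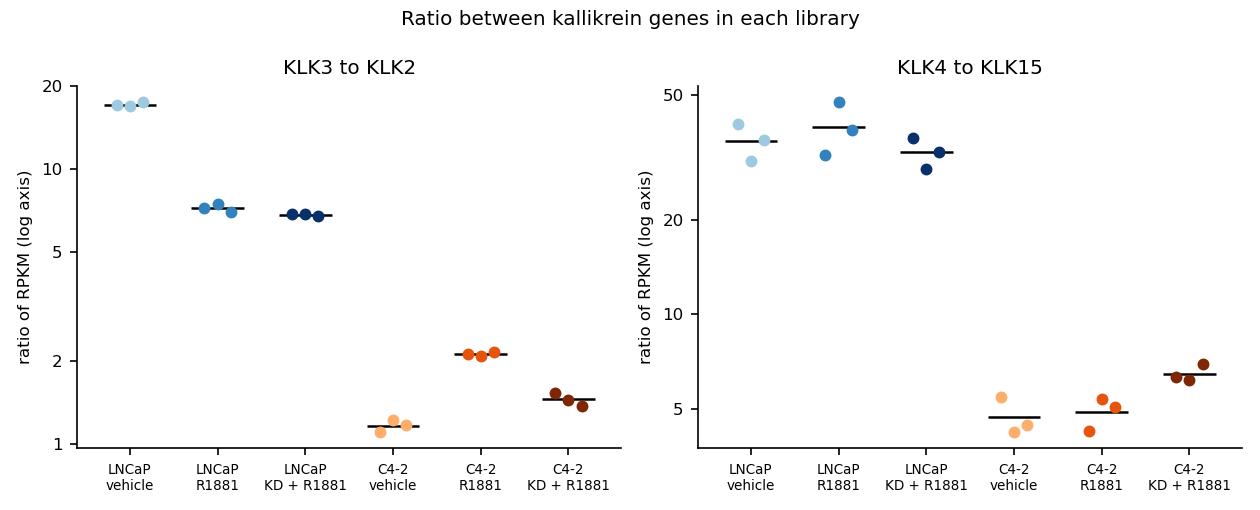
Ratio of RPKM between KLK3 and KLK2 (left) and between KLK4 and KLK15 (right) on vertical log axes in each library (points) of the 6 groups, with the group mean as a bar and KD for dual knockdown. The ratio on the left falls from 17.1 to 7.23 with R1881 in LNCaP and rises from 1.17 to 2.13 in C4-2, and the ratio on the right differs between the lines.

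Dual knockdown of the demethylases KDM1A and KDM7A under R1881 moved each of the 4 tested kallikreins by less than R1881 did. For KLK4 in C4-2 the log2FC were 0.27 and 0.68. Without a dual knockdown group lacking R1881, and with both targets still expressed, the comparison cannot show whether they are needed for androgen-driven expression. In LNCaP, KLK2 rose from 867 to 1092 CPM (log2FC 0.35, SE 0.065, adjusted p = 0.0043) and KLK3 from 4537 to 5400 CPM (log2FC 0.27, SE 0.061, adjusted p = 0.0096). KLK4 (log2FC 0.11, 95% interval −0.02 to 0.23, adjusted p = 0.27) and KLK15 (0.33, −0.09 to 0.76, adjusted p = 0.30) did not pass. The 2 genes that rose compare with 8.27% of all genes tested. No kallikrein reached a log2FC of 1, as 0.157% of genes did upwards. The call for KLK3 was lost without LNCaP R1881 replicate 2 or without dual knockdown replicate 1 or 2 (adjusted p 0.055 to 0.057), while that for KLK2 held without any 1 library.

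In C4-2, dual knockdown raised KLK2 from 257 to 311 CPM (log2FC 0.27, SE 0.086, adjusted p = 0.037) and KLK4 from 62.4 to 75.8 CPM (log2FC 0.27, SE 0.082, adjusted p = 0.025). KLK3 was 329 CPM against 397 CPM, a log2FC of −0.28 (95% interval −0.49 to −0.06) that did not pass (adjusted p = 0.060). KLK15 had a log2FC of −0.13 (95% interval −0.41 to 0.15, adjusted p = 0.52). Of all genes tested, 12.7% rose and 10.8% fell. Summed stromal markers, nearly all of it COL1A1 (26.4 to 36.3 CPM under dual knockdown), moved in the same comparison. The sum went from 17.1 to 24.2 CPM with R1881 alone to 26.6 to 36.3 CPM, and the part of these markers was not tested. These calls rested on few libraries. KLK2 did not pass without vehicle replicate 1, any of the R1881 replicates, or dual knockdown replicate 1 or 3 (adjusted p 0.050 to 0.14), and KLK4 did not pass without R1881 replicate 1 or 3 or dual knockdown replicate 2 (adjusted p 0.056 to 0.11). KLK3 passed without dual knockdown replicate 1 (log2FC −0.41, adjusted p = 0.0020) or vehicle replicate 3 (−0.28, adjusted p = 0.031), and also with DESeq2 (−0.28, adjusted p = 0.038), without the filter (adjusted p = 0.023) and with only the groups compared (adjusted p = 0.034). Over the fits with a library left out, its adjusted p ran up to 0.22, without dual knockdown replicate 3.

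The response of KLK3 to dual knockdown differed between the lines. The interaction was −0.52 (SE 0.13, adjusted p = 0.0096), and it passed with any library left out (−0.65 to −0.46, adjusted p up to 0.032). Of all genes tested, 3.88% had a lower and 6.97% a higher log2FC in C4-2. For KLK2 the difference was −0.06 (95% interval −0.29 to 0.18, adjusted p = 0.81), for KLK4 0.19 (−0.01 to 0.39, adjusted p = 0.21) and for KLK15 −0.44 (−0.92 to 0.04, adjusted p = 0.25). Since KDM1A and KDM7A themselves fell further in C4-2, the line and the depth of the knockdown cannot be told apart.

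With dual knockdown and R1881 together, the 4 genes remained above vehicle in both lines. The log2FC against vehicle was 5.30 for KLK2, 3.97 for KLK3, 1.55 for KLK4 and 1.65 for KLK15 in LNCaP, and 3.56, 3.88, 0.96 and 0.50 in C4-2, with adjusted p of at most 0.011. This comparison changes the siRNA and the hormone at once, and 27.3% of genes in LNCaP and 21.5% in C4-2 rose in it. KLK15 in C4-2 did not pass without vehicle replicate 1 (adjusted p = 0.095). As a share of the level with R1881 alone, KLK3 stood at 119% in LNCaP and 82.9% in C4-2 under dual knockdown, and KLK2 at 126% and 121%.

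The factors that act on kallikrein genes moved in both directions. Of 15 factors and coregulators known to act at kallikrein enhancers, 3 rose and 8 fell with R1881 in LNCaP, and 4 rose and 7 fell in C4-2, with a median log2FC of −0.21 in both, against −0.042 and −0.018 over all genes. Of all genes tested, 23.5% rose and 23.2% fell with R1881 in LNCaP, and 17.1% rose and 15.7% fell in C4-2. Under dual knockdown, 2 of the 15 rose and 7 fell in LNCaP, beside 8.27% and 5.89% of all genes, and 4 rose and 5 fell in C4-2, beside 12.7% and 10.8%. FOXA1, a pioneer factor that opens chromatin, fell with R1881 in C4-2 (−0.33, adjusted p = 0.0037) and rose there under dual knockdown (0.39, adjusted p = 0.0017), and in LNCaP its log2FC were −0.15 (adjusted p = 0.0565) and 0.07 (adjusted p = 0.50). GATA2, a zinc finger transcription factor, fell with R1881 by −1.24 in LNCaP and −1.19 in C4-2 and rose under dual knockdown by 0.42 and 0.31 (adjusted p at most 0.013). Both comparisons of a line use its siScr R1881 libraries, with opposite sign, so a fall and a rise of the same gene are not independent.

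Of 6 proteases able to activate kallikreins, 4 were tested. With R1881, 2 rose in LNCaP (23.5% of all genes rose), and in C4-2 1 rose and 1 fell (17.1% and 15.7% of all genes). TMPRSS2, a membrane serine protease driven by androgen, rose from 68.0 to 1206 CPM in LNCaP (log2FC 4.13, adjusted p = 1.5e-17) and from 71.2 to 621 CPM in C4-2 (log2FC 3.11, adjusted p = 9.9e-12). Under dual knockdown its log2FC was 0.09 (adjusted p = 0.34) in LNCaP and 0.20 (adjusted p = 0.13) in C4-2. Under dual knockdown 3 of the 4 rose in LNCaP (8.27% of all genes rose) and 0 passed edgeR's test in C4-2 (12.7% of all genes rose and 10.8% fell), where 2 had an unadjusted p under 0.05 and DESeq2 called 1. Of 11 inhibitors of kallikreins, 4 were tested, and with R1881 1 rose and 1 fell in LNCaP and 1 rose in C4-2, beside the same shares of all genes. Under dual knockdown 1 rose in LNCaP, and in C4-2 0 passed edgeR's test, with 0 at an unadjusted p under 0.05 and 0 by DESeq2. The inhibitor called higher with R1881 in both lines was SERPINF2, the plasmin inhibitor, which passed the filter through the groups with R1881, so its calls add nothing to its counts. It had 1, 2 and 1 counts in LNCaP vehicle libraries and 8, 9 and 9 with R1881, and 3, 0 and 0 against 21, 32 and 20 in C4-2.

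Of 8 substrates and receptors of kallikreins, 6 were tested. With R1881, 2 rose and 2 fell in LNCaP, beside 23.5% and 23.2% of all genes, and 1 rose and 2 fell in C4-2, beside 17.1% and 15.7%. F2RL1, a protease-activated receptor, rose with R1881 (log2FC 1.77 in LNCaP and 1.11 in C4-2, adjusted p at most 1.7e-06), and FN1, fibronectin, fell (−1.62 and −1.44, adjusted p at most 1.3e-07). IGFBP3, a carrier of insulin-like growth factors that KLK3 can cut, rose in LNCaP from 2.30 to 6.79 CPM (log2FC 1.59, adjusted p = 5.5e-05) and fell in C4-2 from 8.08 to 2.16 CPM (log2FC −1.84, adjusted p = 5.6e-05). Under dual knockdown, 0 of the 6 passed edgeR's test in LNCaP, with none at an unadjusted p under 0.05 and none called by DESeq2, and 3 rose and 1 fell in C4-2, beside 12.7% and 10.8% of all genes.

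Of the 44 other genes within 250 kb of the outermost kallikreins, 10 were tested in LNCaP and 9 in C4-2. With R1881, 4 rose in LNCaP and 3 in C4-2, beside 23.5% and 17.1% of all genes, and 0 fell by edgeR's test (0 and 1 at an unadjusted p under 0.05, and 0 by DESeq2). Under dual knockdown 3 rose in LNCaP and 1 fell in C4-2, beside 8.27% and 10.8% of all genes. VSIG10L (51331536 to 51342124), which encodes a membrane protein, rose from 6.31 to 29.2 CPM in LNCaP (log2FC 2.23, adjusted p = 6.0e-11) and from 10.6 to 23.7 CPM in C4-2 (log2FC 1.11, adjusted p = 1.0e-05). C19orf48P (50797704 to 50804929) rose from 127 to 273 CPM in LNCaP (log2FC 1.09, adjusted p = 4.6e-09), and ACP4, an acid phosphatase (50790415 to 50795224), from 0.937 to 2.00 CPM (log2FC 1.03, adjusted p = 0.0195, with overlapping groups). The unnamed gene ENSG00000267968 (50830530 to 50851089, plus strand), which overlaps KLK15 without sharing its exons, is among those called in C4-2, with 6, 13 and 1 counts with vehicle and 35, 38 and 49 with R1881. It passed the filter through the groups with R1881, so its call adds nothing to these counts. CLEC11A (50723329 to 50725718), a secreted growth factor, rose under dual knockdown in LNCaP (log2FC 0.81, adjusted p = 0.0079) and fell in C4-2 (−0.81, adjusted p = 0.0047). SYT3, a synaptotagmin, had a log2FC of −1.30 (adjusted p = 0.013) in C4-2 with dual knockdown and R1881 against vehicle.

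Genes whose pattern over the 6 group means was most like that of each kallikrein were found by the root mean square difference of centred log2 CPM, over 9931 genes with a mean of at least 10 CPM (14943 with at least 1 CPM for KLK15). KLK2 was most like UGT2B11, an enzyme that conjugates steroids (difference 0.41), GNMT (0.43) and TMPRSS2 (0.47). The nearest to KLK3 were ADAM7 at 0.54, BMPR1B at 0.92 and MAF at 0.93, and KLK2 stood at 1.40 from it, in the 22nd place. ADAM7 was near the floor in C4-2 vehicle libraries (mean log2 CPM −2.70). KLK4 was most like SEC11C (0.092), MSMO1 (0.097) and the luminal keratin KRT18 (0.10). The difference is not divided by a gene's range, so its size does not compare likeness between kallikreins. Group means of log2 CPM ran from 4.43 to 12.4 for KLK3 and from 5.27 to 7.04 for KLK4. KLK15 was most like KREMEN2 (0.16), IMPDH1 (0.20) and GALNT7 (0.22). These values describe 6 points each and carry no test.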

How the data were processed

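RNA Seq counts of 18 libraries (3 in each of 6 groups, grouped by title) were analysed. The authors trimmed reads with TrimGalore, aligned them to GRCh38 with STAR and assigned read pairs to Ensembl 83 genes with FeatureCounts 1.5.0-p1. Per the file headers, no option for strand, multi-mapping or overlapping features was set. The deposited counts are raw read pairs per gene, without normalisation. Replicates of a group differed by more than counting error. Nothing states whether replicates came from separate cultures on separate days, so p-values measure the spread between these libraries. The paper's methods name DMSO as the vehicle in the RNA Seq section and ethanol for R1881 in the culture section.

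Gene names came from the reference table given (56558 of 60675 identifiers matched) and upstream sequences from RefSeq. R 4.3.3 with edgeR 4.0.16 was used: TMM, filterByExpr (minimum count 10, minimum total 15), the quasi-likelihood F-test (2-sided), and p-values adjusted by Benjamini-Hochberg over all genes tested (17162 in LNCaP, 16965 in C4-2, 18684 in all libraries). A gene passed the test, and "rose" or "fell", with an adjusted p under 0.05. Differences between lines were interactions. CPM and RPKM used the effective library sizes of all 18 libraries and the gene lengths of the files. The SE was taken from the log2FC and the F statistic. The exact permutation test (2-sided) of single values was that of scipy 1.17.1. DESeq2 1.42.0 was an alternative. The fit was also run on simulated counts that gave every gene the same spread, and the outcome is not used here.

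The members, lists and tests were chosen with earlier results of these data known. The genes named were the 7 members, the other kallikreins, FOXA1, the siRNA targets, listed or neighbouring genes that passed within a line with a log2FC of 1 or more in size (at most 6 per list), and the 3 most alike genes per member. KLKP1 and the ratios between kallikreins were added after their values were seen. The alternatives were RLE factors, total counts without TMM, DESeq2, removal of the filter, a stricter filter (10 counts everywhere), fits of the compared groups alone, a block for replicate number, omission of each library, thinning to the smallest library and a log2FC threshold of 1. Marker genes past the naming rule are given only in sums. Some genes that the rule would name are not reported here.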

Additional observations from a re-analysis of the deposited data

Results flagged for a closer look

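The results below were picked out because the test of the difference between the lines itself passed (interaction of line and treatment, edgeR, adjusted p under 0.05). Each value is the log2FC in C4-2 minus that in LNCaP. No explanation was tested for any of them.

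For the R1881 response, the difference was −1.68 for KLK2 (adjusted p = 4.6e-09), −0.78 for KLK4 (adjusted p = 1.1e-05) and 0.44 for KLK3 (adjusted p = 0.034). The neighbours KLK3 and KLK2 thus differed between the lines in opposite directions. The KLK3 call was lost in 6 of 18 fits with a library left out (adjusted p up to 0.11). It was also lost with counts thinned to the smallest library (adjusted p = 0.062). Among the proteases and substrates, the difference was −1.04 for TMPRSS2, −0.67 for F2RL1 and −3.43 for IGFBP3, which rose in LNCaP and fell in C4-2. It was 0.60 for KDM7A, −0.61 for C19orf48P and −1.13 for VSIG10L.

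For the dual knockdown response, the difference was −0.52 for KLK3 (adjusted p = 0.0096), whose libraries were higher under dual knockdown in LNCaP (log2FC 0.27) and lower in C4-2 (log2FC −0.28, adjusted p = 0.060). For the siRNA targets it was −2.04 for KDM1A and −1.56 for KDM7A, both lowered further in C4-2. It was 0.34 for FOXA1, 0.50 for F2RL1 and 0.49 for FN1. CLEC11A, which rose in LNCaP and fell in C4-2, had a difference of −1.59 (adjusted p = 0.00075).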

How the results depend on the processing

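Over the alternatives tried, 791 of 824 refitted values of the 4 tested kallikreins kept their direction and their side of the threshold, 25 lost and 8 gained a call, and none changed sign. The number of kallikreins that passed is given here. With a log2FC of at least 1 required, it went from 4 to 2 for R1881 in C4-2 and for dual knockdown with R1881 against vehicle in C4-2, from 2 to 0 for dual knockdown in LNCaP and from 2 to 0 in C4-2, from 3 to 1 for the difference between lines in the R1881 response and from 1 to 0 in the dual knockdown response, and between the lines from 3 to 2 with vehicle and from 4 to 3 with R1881. With counts thinned to the smallest library, dual knockdown in C4-2 left 1 in place of 2. With 1 library left out, the number ranged from 1 to 2 for dual knockdown in LNCaP and from 0 to 3 in C4-2. The cause of these changes was not tested, beyond the stricter threshold itself. Without TMM, mean RPKM in LNCaP vehicle libraries was 79.9 for KLK3, 4.67 for KLK2 and 24.9 for KLK4, and it was 38.9 for KLK2 in C4-2 with R1881, 65.4 for KLK4 in LNCaP dual knockdown and 21.1 for KLK4 in C4-2 vehicle libraries. The KLK3 to KLK2 ratio with a library left out was chosen after seeing the data, and moved by less than 1 SD. With 3 libraries in a group its mean cannot move further than that, so this check decides nothing. With replicate number as a block, the number of kallikreins that passed was 4 and 4 for R1881 in LNCaP and C4-2, and 2 and 3 for dual knockdown, where KLK3 in C4-2 gained the call (log2FC −0.29, adjusted p = 0.039). The replicate numbers gave no clear pairing over both lines together: correlations of same-numbered libraries lay between −0.074 and 0.072 over 18 pairs. In 6 of 18 comparisons of a library with another group's 3 libraries, the same number gave the highest correlation. Most of these 6 were in C4-2, and the lines were not tested apart.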
